A study of Rattus norvegicus with 3 samples.

Results

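Cell-cycle transcripts of the rat thymus were followed as a set of 40 genes across thymocyte stages and stromal cell types. The rule that made the set went by gene identity and used no counts. It held 9 S-phase genes, written here as the S genes (Mcm2, Mcm3, Mcm4, Mcm5, Mcm6, Mcm7, Pcna, Tyms and Rrm2), 6 further S-phase genes (Rrm1, Uhrf1, Cdc6, Cdc45, Gins2 and Tk1), the 2 E-type cyclins (Ccne1 and Ccne2) and 23 genes of G2 and mitosis, written here as the G2/M genes. The G2/M genes were Mki67, Top2a, the cyclins and their kinase (Ccna2, Ccnb1, Ccnb2 and Cdk1), mitotic kinases and checkpoint kinases (Aurka, Aurkb, Plk1, Bub1 and Bub1b), centromere and passenger proteins (Cenpa, Cenpe, Cenpf and Birc5), kinesins (Kif11, Kif20a and Kif23), spindle proteins (Nusap1, Tpx2 and Hmmr) and parts of the anaphase-promoting machinery (Cdc20 and Ube2c). All 40 were among the 34034 gene names of both single-cell libraries, and none was without a UMI (a unique molecular identifier, which counts 1 captured transcript) in either. The levels were summed over the cells of each label that the authors gave, and are UMIs per 1000000 UMIs of that label (CPM).

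The study paired droplet single-cell RNA-seq of thymus with a Stereo-seq tissue section, all from 8-week-old rats of the inbred Lewis strain with no treatment or genotype stated. The thymocyte library came from thymi digested with collagenase D and DNase I. The stromal library came from thymi digested with Liberase TH and DNase I, followed by magnetic enrichment and flow sorting of CD45-negative cells, a sort meant to remove blood-derived cells. The tables used here for the section hold no counts per gene, so it was not analysed here. There was 1 sample per group and the number of animals was not stated, so no test between samples was possible and each interval below is a 95% interval for counting error alone.

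During the cell cycle, the MCM proteins are loaded onto replication origins in G1 and unwind DNA in S phase, where PCNA clamps the polymerase to its template and thymidylate synthase and ribonucleotide reductase supply nucleotides. Cyclin B with CDK1 drives entry into mitosis, and the aurora and polo kinases, kinesins and kinetochore proteins then separate the chromosomes before CDC20 and UBE2C direct the destruction of cyclin B. In the thymus, cells proliferate at the double-negative (DN) stage and as they become double-positive (DP) for CD4 and CD8. Small DP cells then rest through selection, and epithelial progenitors and some medullary epithelial cells also divide.

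S-phase genes are known for E2F sites in their promoters, and G2/M genes for a CHR element together with CCAAT boxes, so promoter windows of both kinds are shown. The windows run from 250 bases before to 50 after the gene start in the RefSeq table of build GRCr8 (300 bases in all), and 32 of the 40 members had one. An E2F site (TTTCCCGC, TTTCGCGC, TTTGCCGC or TTTGGCGC, either strand) was in 6 of 7 windows of the S genes, 1 of 19 windows of the G2/M genes and 2.25% of all 27457 windows. A CHR (TTTGAA or TTCGAA, either strand) was in 2 of 7 S windows, 13 of 19 G2/M windows and 19.5% of all windows. A CCAAT box (CCAAT, either strand) was in 5 of 7, 16 of 19 and 37.7% respectively, and 12 of 19 G2/M windows held both CHR and CCAAT, against 7.83% of all windows. These are matches of letters, not measured binding sites. With the 6 further S genes counted in, 6 of 12 S windows held an E2F site. The windows below belong to Mcm5 (chr19:13488563-13488862, plus strand) and Mcm6 (chr13:42404303-42404602, minus strand), 2 subunits of the replicative helicase, and to Cdk1 (chr20:19265043-19265342, plus strand), the mitotic kinase, Nusap1 (chr3:127057045-127057344, plus strand), a spindle protein, and Cdc20 (chr5:137255750-137256049, minus strand), the mitotic activator of the anaphase-promoting complex. Capitals mark every match of the 3 motifs on either strand, some of which abut or overlap, and the Cdk1 window was the only G2/M one of the 19 with all 3 motifs.
Mcm5: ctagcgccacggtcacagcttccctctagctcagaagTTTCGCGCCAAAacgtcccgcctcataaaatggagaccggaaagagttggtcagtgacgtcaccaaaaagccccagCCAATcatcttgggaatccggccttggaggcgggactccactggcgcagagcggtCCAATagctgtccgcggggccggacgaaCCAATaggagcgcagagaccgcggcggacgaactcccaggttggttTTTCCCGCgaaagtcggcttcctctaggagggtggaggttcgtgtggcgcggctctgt
Mcm6: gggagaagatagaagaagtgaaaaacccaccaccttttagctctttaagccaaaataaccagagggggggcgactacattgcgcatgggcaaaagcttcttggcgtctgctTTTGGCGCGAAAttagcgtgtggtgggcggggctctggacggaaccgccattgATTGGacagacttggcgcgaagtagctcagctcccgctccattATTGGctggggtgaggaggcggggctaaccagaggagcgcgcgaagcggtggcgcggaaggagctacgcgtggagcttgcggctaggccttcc
Cdk1: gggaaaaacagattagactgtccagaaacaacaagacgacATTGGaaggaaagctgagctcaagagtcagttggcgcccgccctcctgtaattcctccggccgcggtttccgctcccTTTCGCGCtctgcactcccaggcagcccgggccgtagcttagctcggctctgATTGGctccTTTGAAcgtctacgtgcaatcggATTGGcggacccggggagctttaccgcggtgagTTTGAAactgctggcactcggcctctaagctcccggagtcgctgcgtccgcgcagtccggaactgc
Nusap1: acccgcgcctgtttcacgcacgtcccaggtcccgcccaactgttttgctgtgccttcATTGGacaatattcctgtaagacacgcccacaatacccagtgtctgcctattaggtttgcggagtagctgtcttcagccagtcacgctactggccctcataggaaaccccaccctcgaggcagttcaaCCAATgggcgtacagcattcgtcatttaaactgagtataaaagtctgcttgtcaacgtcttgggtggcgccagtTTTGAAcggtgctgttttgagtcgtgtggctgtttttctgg
Cdc20: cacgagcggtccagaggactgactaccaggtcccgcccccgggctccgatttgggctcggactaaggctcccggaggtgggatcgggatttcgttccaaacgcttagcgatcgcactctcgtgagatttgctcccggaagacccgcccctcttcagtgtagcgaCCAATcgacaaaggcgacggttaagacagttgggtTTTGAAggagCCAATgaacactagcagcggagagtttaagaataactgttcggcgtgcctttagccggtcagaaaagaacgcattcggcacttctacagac

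The stromal library held 13226 annotated cells of 16160 barcodes with a median of 9087.5 UMIs per annotated cell, and the thymocyte library 8546 of 8574 with a median of 3994. The 40 genes took 514.8 CPM of the stromal and 4206 CPM of the thymocyte library. Labels of at least 20 cells are described, which were 24 stromal and 21 thymocyte labels. The libraries shared 38 barcodes, of which 28 were annotated in both. The labels rest on the authors' clustering and projection, in which these same genes could take part, so a high level in a label named as cycling is a description. DN cells, named as lacking CD4 and CD8, held Cd8a UMIs in 96.4% and Cd4 UMIs in 74.4% of 390 cells (702 and 150 CPM, median depth 23190 UMIs). In gdT, a label of similar depth that should mostly lack CD4, the shares were 60.2% and 25.0% of 128 cells (126 and 58.8 CPM, median depth 19803.5 UMIs), and the part of free RNA in such shares was not tested. In the stroma, the B cell label held a B-cell marker UMI in 58.1% of 179 cells despite the CD45-negative sort.

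Among thymocytes, the cell-cycle genes were concentrated in a few labels. The summed level was highest in proliferating double-positive cells (DP-P) at 10708 CPM (10659 to 10757, 848 cells), followed by Mature cycling T at 8031 CPM (7841 to 8225, 33 cells) and DN at 5782 CPM (5736 to 5827, 390 cells). Gamma delta T cells (gdT) followed at 2269 CPM (2212 to 2326, 128 cells) and Mature CD8-2 at 1563 CPM (1445 to 1689, 27 cells). None of these 5 intervals touched its neighbour. Below them, B+myeloid stood at 763 CPM (170 cells) and AgoSel2 at 412 CPM (58 cells), and the other 14 labels lay between 199 and 351 CPM. A few cells carried both of these sums, with 15 B+myeloid cells holding 80.1% of that label's cell-cycle UMIs (446 of 1825 in 1 cell) and 7 AgoSel2 cells 49.5%.

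DP, the most numerous label with 5202 cells, had 350 CPM (341 to 358), whereas Mature CD8-1 was lowest at 199 CPM (172 to 230, 91 cells). The neighbours from Immature CD8-1 (351 CPM) down through DP and Immature CD4-1 (330 CPM) to Immature CD4-2 (317 CPM) had overlapping intervals. Within DP, 60 cells (1.15%) with 10 or more of the UMIs held 19.5% of all its cell-cycle UMIs. The ratio of summed levels was 16.5 (16.1 to 17.0) for DN over DP and 30.6 (29.9 to 31.4) for DP-P over DP, and both share the same DP cells.

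**Figure D1:**
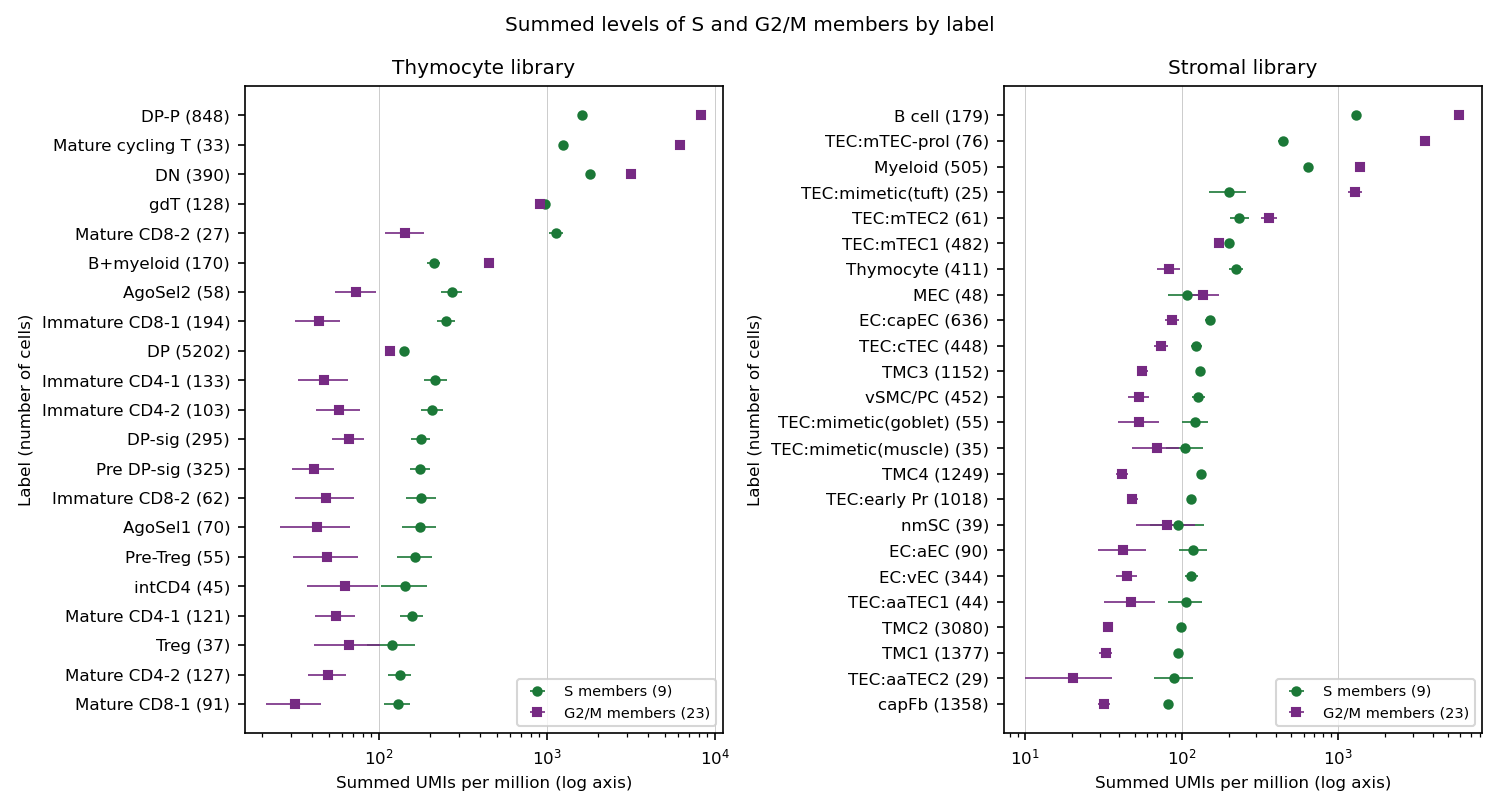
Summed levels of the 9 S genes (circles) and the 23 G2/M genes (squares) in each label of the thymocyte and stromal libraries, in CPM on log axes, with the number of cells in brackets and 95% Poisson intervals. G2/M squares lie to the right of the S circles in DP-P, Mature cycling T, DN, B cell and TEC:mTEC-prol, and to the left in Mature CD8-2 and most labels with low levels.

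The balance of S against G2/M transcripts differed between the cycling labels. The ratio of S to G2/M UMIs is compared between labels only, since counts of different genes are not on one scale. It was 0.570 (0.560 to 0.581) in DN, 0.202 (0.189 to 0.216) in Mature cycling T and 0.197 (0.194 to 0.199) in DP-P. Within the authors' cluster DP-P1, which holds cells of both of the last labels, it was 0.0990 (0.0898 to 0.109) in 19 Mature cycling T cells and 0.187 (0.183 to 0.190) in 521 DP-P cells. DN and DP-P were close in summed S genes, at 1789 and 1619 CPM, and apart in summed G2/M genes, at 3136 and 8234 CPM. In gdT the ratio was 1.07 (1.013 to 1.13), and in DP 1.22 (1.15 to 1.29). Mature CD8-2 had the highest ratio of all, 7.95 (6.06 to 10.4), with 1133 CPM of S genes beside 143 CPM of G2/M genes. The other labels had ratios between 1.81 (Treg) and 5.74 (Immature CD8-1), apart from B+myeloid at 0.469. Without the 13 members whose gene models overlap another gene, the ratio was 0.719 in gdT and 0.863 in DP, and 0.374 in DN and 0.145 in DP-P.

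Phase classes by cell also separated DN from DP-P at equal depth. Each cell was thinned to 2000 UMIs and classed by 3 or more S UMIs, 3 or more G2/M UMIs, or both, which marks a range of counts and not a cell type. Of DN cells, 30.3% held S alone, 40.6% both and 20.8% G2/M alone. Among DP-P cells these shares were 2.13%, 48.9% and 48.6%. Cells one UMI either side of the limits were common, with 122 DN and 225 DP-P cells at 2 or 3 S UMIs. gdT split into 14.1% S alone, 7.03% both and 8.59% G2/M alone, and the remaining 70.3% reached neither. Mature CD8-2 held 22.2% with S alone and none with G2/M, where 0 of 27 cells allows a share of up to 11.1%. Without thinning, 98.2% of DN and 88.7% of DP-P cells were classed as both, at median depths of 23190 and 15439 UMIs.

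The 6 MCM genes, which encode the replicative helicase, were each highest in DN. Mcm6 stood at 294 CPM in DN, 201 in DP-P and 9.99 in DP, and Mcm2 at 153, 83.4 and 30.6 CPM. The other S genes peaked in DP-P. Pcna, the sliding clamp, was at 468 CPM in DP-P, 424 in DN and 29.98 in DP. Tyms, thymidylate synthase, was at 236 CPM in DP-P, 139 in DN and 8.51 in DP. For Rrm2, the regulated subunit of ribonucleotide reductase, the values were 192, 114 and 1.85 CPM. Among the further S genes, Uhrf1 (which carries DNA methylation through replication), Cdc6 (which loads the helicase), Cdc45 and Gins2 (parts of the active helicase) were highest in DN, and Rrm1 (the large reductase subunit) and Tk1 (thymidine kinase) in DP-P. Rrm1 stood at 238 CPM in DP-P, 179 in DN and 14.5 in DP. The DN and DP-P levels of Uhrf1, 292 and 292 CPM, could not be told apart.

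Of the 23 G2/M genes, 21 were highest in DP-P, and Kif20a and Cenpa were highest in Mature cycling T by margins within counting error. Top2a, the topoisomerase that untangles replicated DNA, stood at 1798 CPM in DP-P, 464 in DN and 6.45 in DP. Mki67, a coat of mitotic chromosomes, stood at 1114, 450 and 13.4 CPM, and Cenpf, a kinetochore protein, at 589, 299 and 15.1 CPM. The level of Nusap1 in DP-P, 506 CPM, was furthest from its DN level of 96.4 CPM, a DN over DP-P ratio of 0.191 (0.179 to 0.203). The mitotic cyclins lay closest, with DN over DP-P ratios of 0.744 for Ccnb2 and 0.690 for Ccnb1.

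The other G2/M genes followed the same order by role. Cdk1 stood at 243 CPM in DP-P, 94.5 in DN and 1.43 in DP, and Ccna2, the cyclin of S phase and G2, at 145, 76.3 and 0.793 CPM. Of the kinases, Aurkb was at 154 CPM in DP-P, 60.2 in DN and 5.76 in DP, Aurka at 107, 32.9 and 6.29 CPM, and Plk1 at 109, 27.0 and 1.22 CPM. Bub1 and Bub1b, which hold anaphase until chromosomes attach, were at 291 and 124 CPM in DP-P and at 127 and 50.96 CPM in DN. The kinesin Kif11, which pushes spindle poles apart, stood at 356, 82.7 and 3.75 CPM, and Kif23, which works at the midbody, at 213, 63.9 and 6.34 CPM. Birc5, the survivin subunit of the passenger complex, was at 256, 168 and 5.82 CPM, and so was among the genes whose DN and DP-P levels lay closest. Cenpe, a kinetochore motor, was at 270, 83.5 and 5.34 CPM, and the spindle assembly factor Tpx2 at 366, 155 and 5.97 CPM.

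Counted gene by gene, nearly the whole set was higher in both cycling stages than in DP. Past a minimum of 20 UMIs in both labels together, 39 of 40 members were at least 2-fold higher in DN than in DP, where 18.2% of all 13161 genes were, and 0 were at least 2-fold lower, where 28.7% of all genes were. The median ratio over members was 22.0, against 0.809 over all genes. In DP-P over DP, 39 of 40 were higher (14.6% of all genes) and 0 lower (24.3%), with a median of 35.2. The S genes had similar medians in both, 16.3 and 15.6, and the G2/M genes did not, 24.1 and 61.3. Comparing DN with DP-P directly, 2 of 40 were at least 2-fold higher in DN (3.51% of all genes), namely Cdc6 at 98.7 against 42.7 CPM and Gins2 at 47.5 against 21.6 CPM. In the other direction 16 of 40 were lower (4.23% of all genes), and all 16 were G2/M genes, whose median ratio was 0.404 against 1.46 for the S genes.

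**Figure D2:**
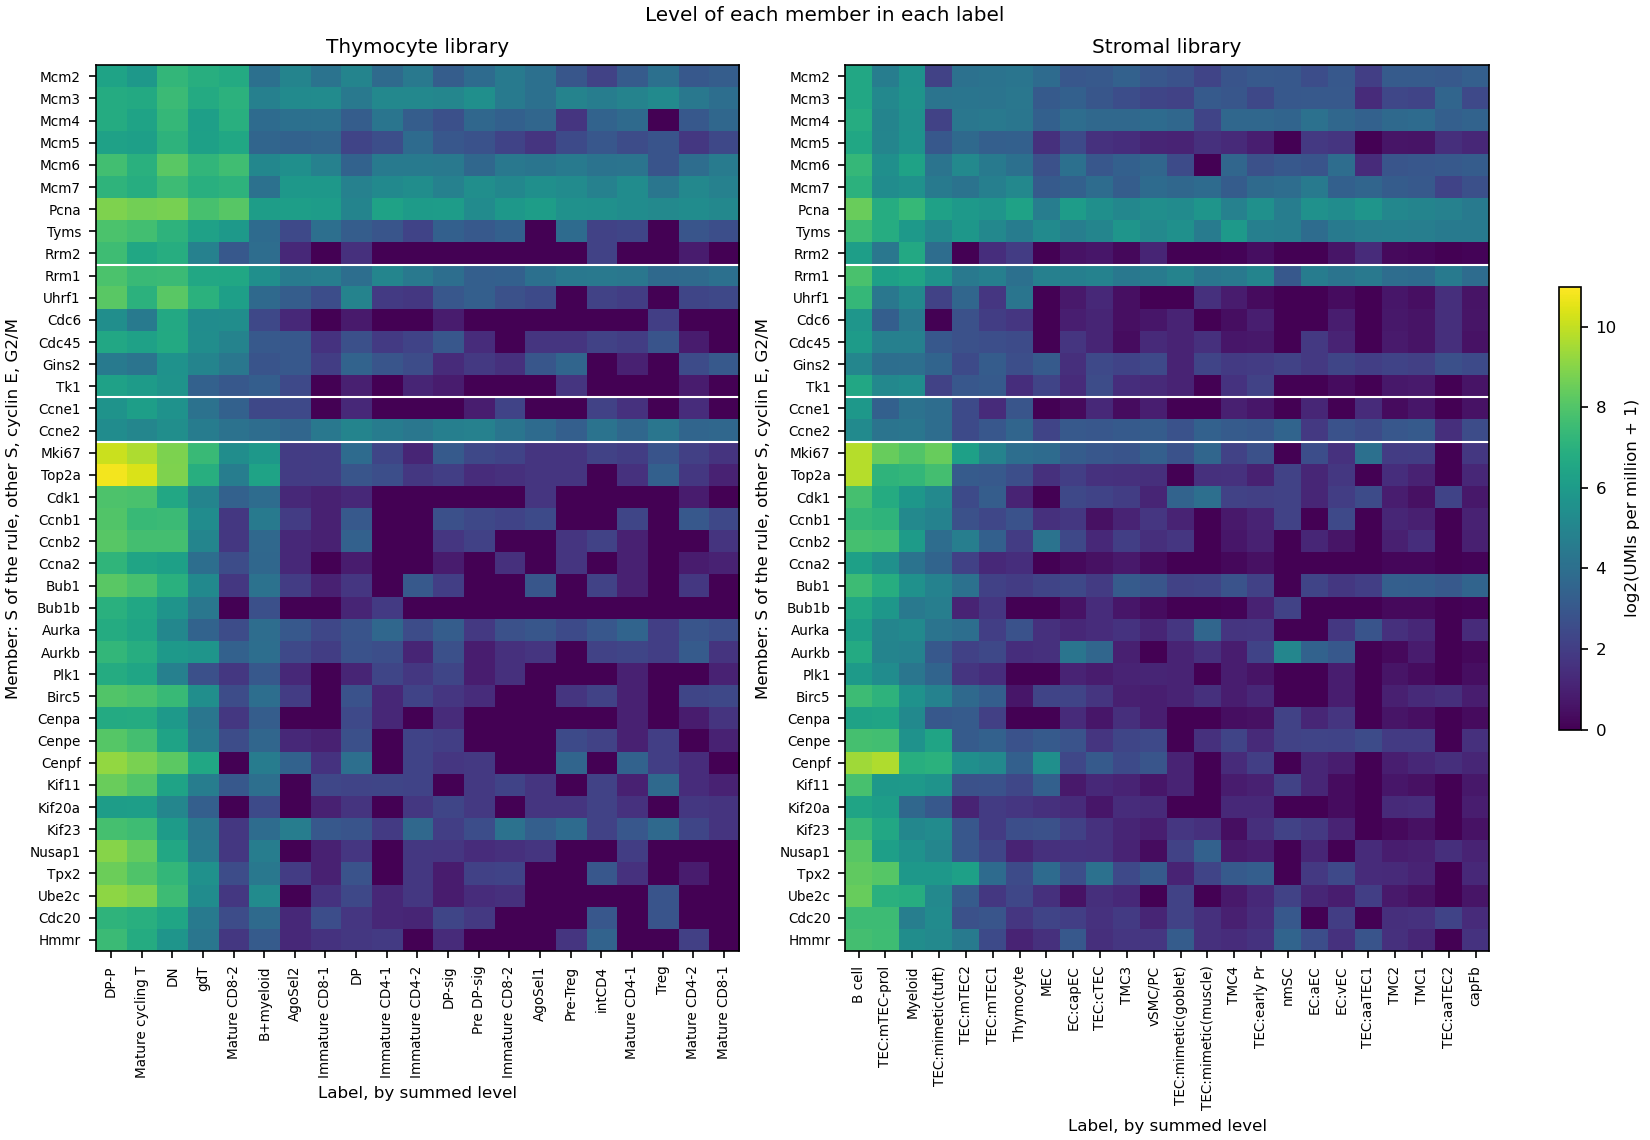
Level of each of the 40 genes (vertical axis, grouped as S, further S, cyclin E and G2/M) in each label (horizontal axis, ordered by summed level), as log2(CPM + 1), for the thymocyte and stromal libraries. MCM genes are brightest in DN and most G2/M genes in DP-P, while Ccne2, Pcna and Mcm7 keep a signal in labels where Rrm2, Cdk1 and Bub1b are at or near 0.

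The E-type cyclins, which act with CDK2 at the start of S phase, behaved unlike each other. Ccne1 stood at 70.9 CPM in Mature cycling T, 48.9 in DP-P, 47.6 in DN and 1.37 in DP. Ccne2 stood at 42.3 CPM in DN, 39.3 in DP-P and 30.1 in DP, and was the one member of the 40 under 2-fold in both comparisons with DP, at 1.41 (1.24 to 1.59) and 1.31 (1.17 to 1.46). Over 10 labels with low summed levels (DP, Pre DP-sig, DP-sig, both Immature CD4, both Immature CD8 and both Mature CD4 labels and Mature CD8-1, a choice made after their levels were seen) its median was 19.97 CPM, while Ccne1 was at 0 in 5 of them. The gene models of Ccne2 and Ints8 overlap in the RefSeq table, and whether reads were counted by strand is not given in the sources used here, so its level could hold reads of the other gene.

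In those 10 labels most members were far below their levels in DN and DP-P. Pcna had a median of 48.8 CPM over them, Mcm7 35.4 CPM and Mcm3 30.7 CPM. Rrm2 was at 0 UMIs in 8 of the 10 labels, Bub1b, a spindle checkpoint kinase, also in 8, and Cdk1 in 7. Apart from DP, these labels held between 541188 and 1288426 UMIs of all genes, so a count of 0 allows a level of a few CPM. A few members stood out in single labels, chosen after their values were seen. Mcm2 (30.6 CPM) and Uhrf1 (29.0 CPM) were highest in DP, and Kif23, a cytokinesis kinesin, reached 16.6 CPM in Immature CD8-2. The last label has 62 cells and 541188 UMIs, so its Kif23 level rests on few UMIs.

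The comparison of DP with mature cells depended on 1 small label. Against the 4 mature CD4 and CD8 labels pooled (366 cells), 10 of 40 members were at least 2-fold higher in DP (19% of all genes) and 5 were lower (11.2%), counts close to those over all genes. The 5 were Mcm4, Mcm5, Mcm6, Pcna and Cdc6. Mature CD8-2 supplied 647 of the 1365 cell-cycle UMIs of the pool. Leaving it out, an alternative added after seeing the data, 16 of the 37 members past the minimum were higher in DP (18.9% of all genes) and 0 were lower (10.2%). The S genes summed then had a DP over mature ratio of 1.02 (0.920 to 1.12), and the G2/M genes 2.52 (2.13 to 2.98). In that comparison Mki67 stood at 13.4 CPM in DP and 2.80 in mature cells, and Ccnb2 at 9.57 and 0.932 CPM, the last on 3 UMIs. These are sums over a label. Of 5202 DP cells, 102 held 3 or more G2/M UMIs alone and 19 held both G2/M and S. The DP sum includes the 60 cells (1.15%) with 19.5% of its cell-cycle UMIs, and the ratio without them was not computed.

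Mature CD8-2 held Pcna and the 6 MCM genes at levels under 2-fold from those in DN, with little G2/M signal and with Rrm2 at 7.25 CPM. This comparison with Mature CD8-1 was chosen after the values were seen. Its 27 cells had 283 CPM of Pcna against 33.8 in Mature CD8-1, 196 against 23.2 CPM of Mcm6, 104 against 8.44 CPM of Mcm2 and 60.4 against 5.27 CPM of Tyms. No G2/M gene reached 20 UMIs in both labels together. Most of the members that did reach 20 UMIs did so through Mature CD8-2, so their number is not read as a result. Top2a stood at 24.2 against 1.05 CPM and Mki67 at 41.1 against 2.11 CPM. Of the 27 cells, 66.7% held 3 or more S UMIs alone, 29.6% both and 0 G2/M alone. All 27 lay in the authors' Mature SP cluster, and they were deeper than Mature CD8-1, at medians of 15655 and 10290 UMIs. The label went against its name in Cd8a, at 184 CPM and in 33.3% of its cells, against 585 CPM and 85.7% in Mature CD8-1, while Cd4 UMIs were in 66.7% and 18.7% of cells.

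Splitting labels by the authors' own clusters, done after seeing the values, separated parts of the same label with different ratios. Labels and clusters crossed each other, so the comparison of DN with DP-P above is one of labels, each of which mixes clusters. Most DN cells lay in 3 clusters. Those in cluster DN (192 cells) had 5669 CPM and an S to G2/M ratio of 0.540, and those in cluster DP-P2 (151 cells) had 5181 CPM and a ratio of 1.20 (1.15 to 1.25). Those in cluster DP-P3 (36 cells) had 8841 CPM and a ratio of 0.195. Cluster DN also held 199 DP-P cells, which had 9470 CPM and a ratio of 0.259 (0.254 to 0.264). These DP-P cells were close to the DN cells of the same cluster in Cd8a (429 against 465 CPM), Cd4 (76.6 against 57.2 CPM) and median depth (35471 against 37879 UMIs). The DN cells of cluster DP-P2 also held 1286 CPM of Cd8a and 374 CPM of Cd4, with Cd4 UMIs in 95.4% of cells. Their Mcm6 level was 400 CPM, the highest of any of the parts, beside 17.5 CPM of Nusap1 and 35.5 CPM of Ube2c.

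At the other extreme, DP-P cells of cluster DP-P3 (123 cells) had the lowest ratio, 0.0320 (0.0293 to 0.0348), with 11425 CPM of G2/M and 365 CPM of S genes. There Ccnb2, a mitotic cyclin, was at 786 CPM, Cdc20 at 382 CPM and Ube2c, the ubiquitin-conjugating enzyme of mitotic exit, at 1143 CPM. In the DP-P cells of cluster DP-P1 (521 cells) the same genes stood at 290, 127 and 567 CPM. Pcna differed in the other direction, at 49.6 CPM in cluster DP-P3 and 494 CPM in cluster DP-P1. DP-labelled cells of cluster DP-P3 (16 cells) had 4182 CPM and a ratio of 0.0675, whereas DP cells of cluster DP1 (2916 cells) had 352 CPM and those of DP2 (2186 cells) 260 CPM. The 19 Mature cycling T cells of cluster DP-P1 had 10951 CPM with 0 UMIs of Ptcra, the pre-T-cell receptor chain, and 23.1 CPM of Rag1, against 270 and 447 CPM in the DP-P cells of that cluster.

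**Figure D3:**
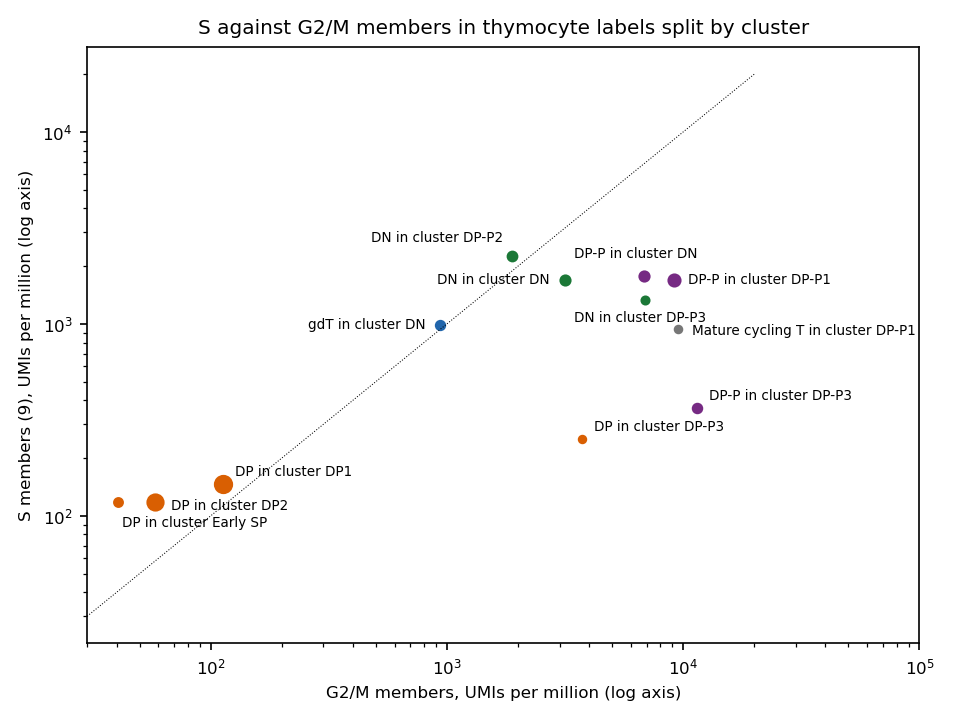
Summed S genes (vertical) against summed G2/M genes (horizontal), in CPM on log axes, for thymocyte labels split by the authors' clusters, with point size growing with cell number and a dotted line of equal values. DN cells of cluster DP-P2 lie above the line, and DP-P cells of cluster DP-P3 lie furthest to the right at a low S level.

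Regulators outside the set were read from 6 lists of related genes. In DN over DP, 6 of 8 measured cyclins, kinases and phosphatases, 9 of 12 transcription factors, 17 of 17 other replication genes, 26 of 27 other mitosis genes and 8 of 8 chromatin genes were at least 2-fold higher, and 0 of each were lower (18.2% and 28.7% of all genes). DP-P over DP gave 6 of 8, 9 of 12, 17 of 17, 27 of 27 and 8 of 8, again with 0 lower (14.6% and 24.3% of all genes). Of 11 cell-cycle brakes, 3 were higher and 5 lower in DN, and 4 higher and 4 lower in DP-P, to be read against the same shares of all genes. Cdkn1b, an inhibitor of cyclin-dependent kinases, stood at 644 CPM in DP, 311 in DP-P and 181 in DN. Cdkn1a was under 2 CPM in all 3. Ccnd3, a D-type cyclin needed by early thymocytes, stood at 404 CPM in DN, 445 in DP-P and 364 in DP, under 2-fold apart, while Ccnd2 was at 15.5, 3.80 and 0.317 CPM.

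E2f1, an activator of S-phase genes, stood at 54.6 CPM in DN, 34.1 in DP-P and 1.64 in DP, and E2f2 at 84.7, 121 and 110 CPM. Orc1 and Orc6 are subunits of the origin recognition complex. Orc1 was at 38.4 CPM in DN, 17.4 in DP-P and 0.793 in DP, and Orc6 at 67.7, 64.8 and 7.30 CPM. Kif2c and Kif4a, both mitotic kinesins, were at 35.1 and 67.6 CPM in DN and at 93.4 and 214 CPM in DP-P. The histone variants H2az1 and H2ax were at 2876 and 143 CPM in DN and 3174 and 440 CPM in DP-P. In DN over DP-P, 17 of 27 mitosis genes were at least 2-fold lower and 2 of 17 replication genes higher, where 4.23% of all genes were lower and 3.51% higher. Of the other lists, 0 transcription factors were higher and 2 lower, 0 brakes higher and 3 lower, 1 cyclin or kinase higher and 1 lower, and 0 chromatin genes higher and 1 lower. In DP over pooled mature cells, 12 of 17 replication genes were at least 2-fold lower, and without Mature CD8-2 it was 2 of 15, where 11.2% and 10.2% of all genes were lower. The other 5 lists gave between 1 and 5 genes higher and between 0 and 3 lower there, where 19% of all genes were higher and 11.2% lower.

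In the stromal library 4 labels stood above the rest. The B cell label had 7953 CPM (7850 to 8057, 179 cells), TEC:mTEC-prol, the proliferating medullary epithelial label, 4219 CPM (4111 to 4330, 76 cells) and Myeloid 2283 CPM (2245 to 2321, 505 cells). TEC:mimetic(tuft) followed at 1583 CPM (1440 to 1737), which rested on the 4 of its 25 cells with 10 or more cell-cycle UMIs. Of the label's 445 cell-cycle UMIs, 261 were in 1 cell. The 4 cells had 4353 CPM and the other 21 had 321 CPM, a gap that follows from choosing them by this count. TEC:mTEC2 had 659 CPM (607 to 715), TEC:mTEC1 435 CPM (419 to 452) and Thymocyte 372 CPM (344 to 402), in that order and without overlap. Cells with 10 or more cell-cycle UMIs, 12 of 61 in TEC:mTEC2 and 62 of 482 in TEC:mTEC1, held 78.5% and 60.7% of these UMIs. The intervals do not cover which cells were caught. The other 17 labels lay between 139 CPM (capFb, capsular fibroblasts) and 287 CPM (MEC), among them TEC:cTEC at 248 CPM and TEC:early Pr, early epithelial progenitors, at 208 CPM. Of the G2/M genes 20 of 23 were highest in B cell, and Cenpf (821 CPM), Cdc20 (185 CPM) and Cenpa (85.6 CPM) in TEC:mTEC-prol, though Cdc20 and Cenpa were there within counting error of B cell. Of the 9 S genes 8 were highest in B cell and Rrm2 in Myeloid, at 99.1 against 71.8 CPM, and both E-type cyclins were highest in B cell.

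Proliferating medullary epithelial cells differed from mTEC1 mostly in G2/M genes. Of the 40 members, 35 were at least 2-fold higher in TEC:mTEC-prol (9.64% of all genes) and 0 lower (11.9%), and the ratio of summed levels was 9.70 (9.27 to 10.1). All 23 G2/M genes were among them, with a median ratio of 23.2. Of the 9 S genes 5 were, with a median of 2.01. The 4 under 2-fold were all MCM genes. Cenpf stood at 821 CPM against 35.4 in TEC:mTEC1, Mki67 at 348 against 29.1 CPM and Top2a at 142 against 7.46 CPM. Tyms stood at 111 against 34.2 CPM, Pcna at 112 against 52.9 CPM and Rrm1 at 76.1 against 26.1 CPM. Of the anaphase genes, Cdc20 stood at 185 against 6.37 CPM and Ube2c at 126 against 2.49 CPM, and of the kinesins Kif11 at 57.1 against 5.75 CPM. Ccne1 was at 9.51 against 1.55 CPM and Ccne2 at 17.6 against 6.995 CPM. The S to G2/M ratio was 0.124 (0.114 to 0.135) in TEC:mTEC-prol, 1.15 (1.07 to 1.25) in TEC:mTEC1 and 0.644 (0.540 to 0.767) in TEC:mTEC2. In TEC:mTEC2 it was 1.98 without cells that held a thymocyte gene UMI. The thymocyte list includes Ptcra, which gave 34 of the 61 such UMIs of TEC:mTEC-prol. Whether the cells left out held carried-over thymocyte RNA was not tested. In TEC:mTEC1 the S to G2/M ratio was 0.936 without the overlapping members. TEC:mTEC1 differed by the authors' cluster, a split made after seeing the values, with 595 CPM and a ratio of 0.956 in the 232 cells of cluster TEC-d, 212 CPM and 3.07 in the 176 of TEC-b and 220 CPM and 2.47 in the 54 of TEC-c. Of the 76 TEC:mTEC-prol cells, 70 lay in TEC-d, at 4384 CPM and a ratio of 0.122, so the ratio of 9.70 above sets them against a mix of clusters. At 2000 UMIs per cell, 65.8% of TEC:mTEC-prol cells held G2/M alone, 2.74% S alone and 0 of 73 both, which allows a share of up to 4.11%. As sequenced, at a median of 16804.5 UMIs, 53.9% held both, 21.1% G2/M alone and 9.21% S alone. The absence of cells with both thus holds at the thinned depth only.

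Among the related lists, 27 of 27 other mitosis genes were at least 2-fold higher in TEC:mTEC-prol than in TEC:mTEC1 (median 14.1), 10 of 16 replication genes (median 2.23), 6 of 8 chromatin genes, 4 of 11 transcription factors, 3 of 9 cyclins, kinases and phosphatases and 3 of 13 brakes, with 0 lower in each, where 9.64% of all genes were higher and 11.9% lower. Kif2c was at 31.5 against 2.18 CPM and Kif4a at 71.0 against 4.35 CPM. H2az1 was at 1625 against 364 CPM and H2ax at 146 against 22.9 CPM. E2f1 (13.2 against 3.89 CPM) and E2f2 (25.6 against 4.35 CPM) were higher, as was Orc6 (22.7 against 8.39 CPM). The D-type cyclin Ccnd2 stood at 230 against 75.4 CPM, and Ccnd3 at 17.6 against 19.7 CPM. The brakes Cdkn1b (119 against 116 CPM) and Cdkn1a (32.2 against 32.6 CPM) were under 2-fold apart.

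The stromal B cell label pooled cells with markers of several cell types. Its B-cell markers summed to 825 CPM, with Cd79a at 615 CPM, while its mesenchymal markers summed to 3961 CPM, with Dcn at 2512 and Col1a1 at 1312 CPM. Its epithelial markers summed to 704 CPM, and Ptprc, which encodes CD45, stood at 118 CPM. The 104 cells with a B-cell marker UMI had 7411 CPM of the cell-cycle genes and an S to G2/M ratio of 0.332, and the 75 cells without had 8571 CPM and 0.132. So the level was higher in the cells without a B-cell marker UMI (8414 to 8729 CPM) than in those with one (7275 to 7549 CPM). The cells without were also deeper, at medians of 17108 and 13166 UMIs.

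To describe this further, cells with 10 or more cell-cycle UMIs were sorted by which marker list they held, meaning 10 or more UMIs of that list and under 10 of every other, a split made after seeing the values. Of 149 such B cell-labelled cells, 41 held mesenchymal markers, 28 B-cell, 15 epithelial, 5 thymocyte, 2 endothelial and 2 erythroid markers. A further 51 held more than 1 list and 5 none. The 41 mesenchymal-marker cells had 8348 CPM of the cell-cycle genes (8143 to 8557), a ratio of 0.132, 12793 CPM of mesenchymal and 12.0 CPM of B-cell markers, at a median depth of 17849 UMIs. The 15 with epithelial markers had 9654 CPM, a ratio of 0.0995 and 5197 CPM of epithelial markers. The marker levels of both groups follow from the sorting by those markers and are not read as a result. All 46 cells of the label that held B-cell markers, whatever their cell-cycle count, had 6664 CPM and a ratio of 0.421.

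In the 5 fibroblast labels themselves (TMC1, TMC2, TMC3, TMC4 and capFb, 8216 cells), 38 cells had 10 or more cell-cycle UMIs, of which 37 held mesenchymal markers alone. These 38 had 1088 CPM (1009 to 1171) and a ratio of 0.859, and the other 8178 had 163 CPM and a ratio of 3.04. The split used the cell-cycle count itself, so the gap in level follows from it and is not read as a result. Thinned to 1000 UMIs, 7.89% of the 38 kept 3 or more cell-cycle UMIs. Thus 48 cells with mesenchymal markers and 10 or more cell-cycle UMIs lay in the B cell and Myeloid labels, beside 37 in the fibroblast labels. The 48 had 7757 CPM and 85.4% of them kept 3 or more at 1000 UMIs, so the 2 groups were unlike in level. With epithelial markers and 10 or more cell-cycle UMIs there were 19 cells in B cell and Myeloid and 52 in TEC:mTEC-prol. By the same rule 1.10% of 636 EC:capEC cells and 2.68% of 411 Thymocyte cells held mesenchymal markers alone, and 22.9% of B cell-labelled cells did. A droplet with 2 cells falls under more than 1 list only where it holds 10 or more UMIs of each of 2 lists. In that class lay 6.92% of EC:capEC, 14.4% of Thymocyte and 29.6% of B cell-labelled cells. A further 17.3%, 13.1% and 7.26% of these labels held none of the lists. With such a cell as partner, a droplet of 2 cells would still be counted under 1 list. No doublet caller was run, and the part of doublets in these cells was not tested.

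**Figure D4:**
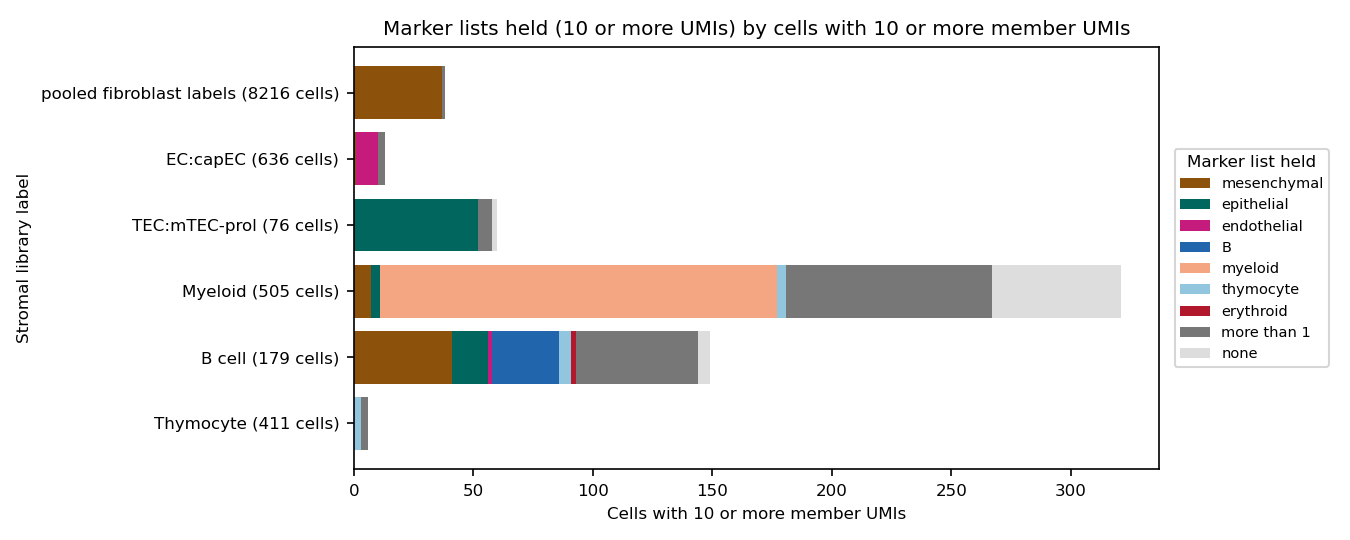
Stromal cells with 10 or more cell-cycle UMIs (horizontal axis, number of cells) in 6 labels or pools, coloured by the marker list of which they held 10 or more UMIs. In the B cell label 41 of 149 such cells held mesenchymal markers alone and 28 held B-cell markers alone, while 52 of 60 in TEC:mTEC-prol held epithelial markers alone.

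The Myeloid label held Lyz2, the lysozyme of macrophages and granulocytes, at 4808 CPM and in 94.1% of cells, but C1qa and C1qb, macrophage complement genes, at 0 UMIs. Ptprc stood at 255 CPM. Of its 321 cells with 10 or more cell-cycle UMIs, 166 held myeloid markers alone, 86 more than 1 list and 54 none. The S to G2/M ratio of the label was 0.465 (0.447 to 0.483). B+myeloid in the thymocyte library, whose cells did hold C1qa and C1qb UMIs, had 0.469 (0.422 to 0.522), mostly from the 15 cells given above. At 2000 UMIs, 27.2% of Myeloid cells held G2/M alone, 9.07% S alone and 7.59% both. Pcna stood at 165 CPM, Tyms at 61.5, Mki67 at 261, Top2a at 155 and Cenpf at 119 CPM in Myeloid, and at 355, 186, 870, 887 and 682 CPM in B cell.

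Fibroblast, endothelial and most epithelial labels had low levels, with S to G2/M ratios above those of B cell, Myeloid and TEC:mTEC-prol. The pooled fibroblast labels had 171 CPM (168 to 174) and a ratio of 2.79, and the pooled endothelial labels (1070 cells) 235 CPM (225 to 246) and a ratio of 2.03. Among the fibroblasts, TMC3 (222 CPM) and TMC4 (211 CPM) did not differ beyond counting error and lay above TMC2 (161 CPM), TMC1 (154 CPM) and capFb (139 CPM). Tyms was highest of these in TMC4, at 60.0 CPM. In endothelial over fibroblast cells, 9 of 37 members past the minimum were at least 2-fold higher (15% of all genes) and 1 was lower (18.1%). The lower one was Bub1, a spindle checkpoint kinase, at 3.50 against 8.71 CPM. Aurkb, the kinase of the chromosomal passenger complex, had the largest ratio, 25.6 (17.9 to 36.7), at 13.0 against 0.506 CPM, and reached 18.2 CPM in EC:capEC. The next member, Kif23, had a ratio of 5.197 (3.03 to 8.90). Outside endothelium, Aurkb was higher than in EC:capEC in the nmSC label (39 cells), at 31.7 CPM. In EC:capEC, 13 of 636 cells held 25.4% of the cell-cycle UMIs. Of the related lists, Kif2c, a mitotic kinesin, stood at 6.77 against 0.190 CPM, the larger ratio of 35.6.

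Medians were taken over 11 such stromal labels, chosen likewise, which were the 5 fibroblast and 3 endothelial labels, vSMC/PC, TEC:cTEC and TEC:early Pr. Pcna had a median of 40.1 CPM, Tyms of 25.7 CPM, Rrm1 of 20.6 CPM and Rrm2 of 0.225 CPM. Ccne2 had a median of 7.08 CPM and Ccne1 of 0.570 CPM. Among the related lists in endothelial over fibroblast cells, 9 of 23 other mitosis genes were higher and 1 lower, 3 of 17 replication genes, 4 of 13 transcription factors and 2 of 8 chromatin genes were higher with 0 lower, 3 of 9 cyclins or kinases were higher and 1 lower, and 4 of 13 brakes were higher and 3 lower, where 15% of all genes were higher and 18.1% lower. Cdkn1a stood at 37.7 against 12.1 CPM and Ccnd2 at 24.5 against 70.8 CPM.

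The share of cells with 3 or more cell-cycle UMIs depended on depth. As sequenced it was 100% in DN, DP-P, Mature cycling T and Mature CD8-2, 92.2% in gdT, 60.3% in AgoSel2 and 11.1% in DP, and 30.7% to 32.2% in Mature CD4-1, Mature CD4-2 and Mature CD8-1. Thinned to 1000 UMIs per cell it was 98.1% in DP-P, 86.7% in DN, 84.8% in Mature cycling T, 20.3% in gdT, 18.5% in Mature CD8-2, 1.05% in DP and 0 of 58 cells in AgoSel2, which allows up to 5.17%. In the stroma it went from 88.8% to 78.2% in B cell, from 86.8% to 63.2% in TEC:mTEC-prol and from 87.9% to 38.8% in Myeloid. TMC2 fibroblasts gave 17.9% as sequenced at a median of 8269.5 UMIs and 0 of 3079 after thinning, which allows up to 0.0974%, and Pre DP-sig thymocytes 8.00% at a median of 3484 UMIs and 0.308%. Shares of that size in unthinned data were thus also given by labels with almost no cells above the limit at equal depth. At 1000 UMIs, 3 UMIs are a larger part of a cell's total than at full depth, so the thinned limit is stricter. A thinned share near 0 therefore does not show that a label lacks cycling cells. TEC:mTEC1, at 51.7% and a median of 11915.5 UMIs, went to 3.78%, and TEC:mTEC2 from 55.7% to 6.67%.

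**Figure D5:**
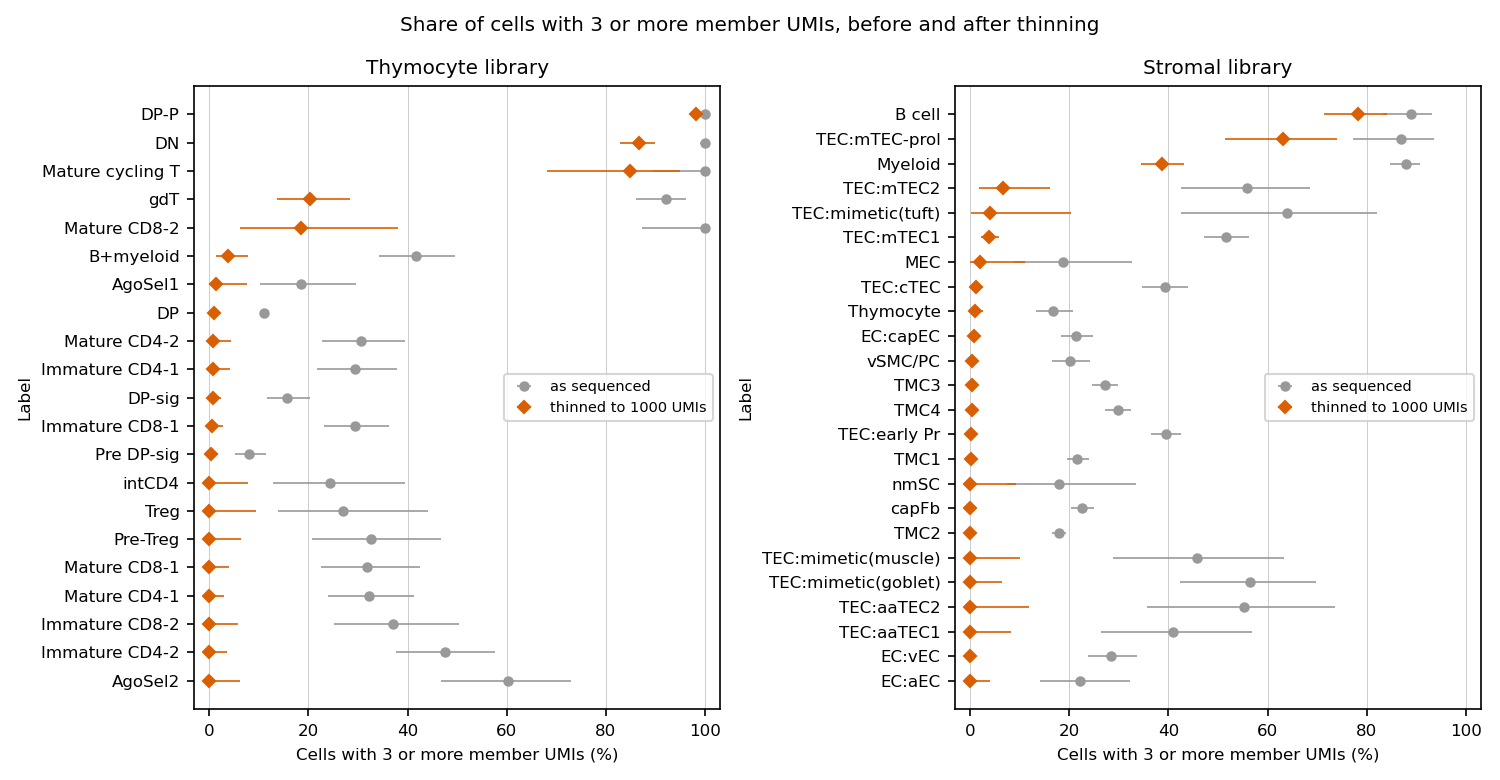
Share of cells with 3 or more cell-cycle UMIs (horizontal axis, percent) in each label as sequenced (grey) and after thinning each cell to 1000 UMIs (orange), with 95% Clopper-Pearson intervals. After thinning, DP-P, DN and Mature cycling T keep 84.8% or more and B cell, TEC:mTEC-prol and Myeloid 38.8% or more, while every other label is at or under 20.3%.

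Outside the set and the lists, the genes whose level over labels ranked most like the summed set were Etf1 (a translation release factor, Spearman rho 0.948), Hist1h2ah (a histone, 0.934) and Cdkn3 (a cyclin-dependent kinase phosphatase, 0.926) over 18 stromal labels, followed by Bop1 (0.924) and Eif2s1 (0.920). Over 17 thymocyte labels they were Hpf1 (0.946), Drosha (0.904), Hist1h2ac (0.902), Tipin (a replication fork protein, 0.900) and Gipc1 (0.895). These ranks describe labels of 1 library that share depth and preparation. Cdkn3 stood at 335 CPM in B cell and 214 CPM in TEC:mTEC-prol, with a median of 2.63 CPM, and Hist1h2ac at 491 CPM in DP-P and 76.7 CPM in DN, with a median of 3.70 CPM. For the others the highest level and the median follow, in CPM. Etf1 stood at 132 (B cell) and 71.0, and Hist1h2ah at 220 (B cell) and 2.63. Bop1 stood at 22.7 and 10.9, and Eif2s1 at 133 and 67.3, both highest in TEC:mTEC-prol. Hpf1 stood at 145 (DN) and 30.6, and Tipin at 185 (DN) and 21.9. Drosha stood at 42.9 (DP-P) and 23.3, and Gipc1 at 44.3 (B+myeloid) and 22.1.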

How the data were processed

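The values analysed here are whole-number counts of UMIs per gene and cell, deposited by the authors as 1 matrix for the stromal and 1 for the thymocyte library. Per the file headers, version 8.0.0 of Cell Ranger wrote them, and the submitters' processing notes name the rat build mRatBN7.2 and Seurat 5.3.0. The deposited cell tables give each cell's count of UMIs and of genes, its percent of mitochondrial UMIs and its cluster and label, which per the labels' design text rest on published mouse reference datasets. The authors' projected label was used where given and their initial cluster otherwise, and cells without an annotation stayed out of every comparison. The annotated cells held between 621 and 55374 UMIs in the stromal and between 520 and 107058 UMIs in the thymocyte library. No doublet caller was run.

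For each label of at least 20 cells the UMIs of the members were summed and divided by the label's total. Intervals are exact Poisson for levels, Clopper-Pearson for shares and log-normal for ratios, at 95%, and cover counting error only, since each group had 1 sample and no p-value was computed. A gene was compared where both labels together held 20 UMIs and was counted as higher or lower past 2-fold, and where 1 label had under 3 UMIs the ratio was taken against a floor of 3. The 2-fold rule was tested on simulated data for DN over DP (13168 genes), where 100% of genes raised 3-fold and 4-fold passed, and 0.362% of unchanged genes. The simulated counts had Poisson error alone, with no variation between cells or samples, and only genes above a minimum of UMIs were raised. Such genes were near certain to pass, so the run checks the working of the rule and gives no rate of false calls. Cells were thinned at random to 1000 or 2000 UMIs, leaving out shallower cells. Python 3.11.15 with numpy 2.4.6, pandas 2.3.3, scipy 1.17.1 and matplotlib 3.10.9 was used.

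The members, lists and comparisons were chosen with earlier results of these data known. Genes named by rule were the 3 of each group with the most UMIs over both libraries. The first 2 of each related list with at least 20 UMIs and the 5 genes most alike per library were named likewise. For the most alike genes only the rho, the highest levels and the median are given. Other genes were named after their values were seen. Marker lists held 10 thymocyte, 4 B-cell, 5 myeloid, 4 epithelial, 4 mesenchymal, 3 endothelial and 4 erythroid genes. The thymocyte list includes Ptcra, which 10.5% of TEC:mTEC-prol cells held. Leaving out epithelial cells with a thymocyte gene UMI thus need not remove carried-over RNA alone. Promoter windows came from RefSeq, build GRCr8, and no coordinates were converted between builds. Of the members, 13 overlap another gene there, so reads of the partner could be counted with them. Alternatives covered depth limits, thinning, thresholds, other totals, clusters in place of labels and sets of members left out.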

Additional observations from a re-analysis of the deposited data

Results flagged for a closer look

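Barcodes that the authors left without an annotation also held cell-cycle UMIs, in data that no comparison above used. In the stromal library 2934 such barcodes had 1161 CPM (1139 to 1184). Of these, 67 had more genes than any annotated cell, a median of 42415 UMIs, 2669 CPM of the cell-cycle genes and an S to G2/M ratio of 0.296. Another 828 were within the annotated range of genes and had 469 CPM, and 2039 had fewer genes than any annotated cell and 163 CPM. In the thymocyte library 28 barcodes without annotation had 145 CPM (39.5 to 372), on 4 UMIs.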

How the results depend on the processing

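No paired analysis was possible because there was a single sample in each group. Counting error is the only error measured here, and low labels with few UMIs have wide intervals. Over all labels and alternatives, the summed level moved by less than its interval in 208 cases and by more in 121, and the S to G2/M ratio in 226 and 98, with 5 that moved across 1, a value with no meaning of its own for sums of different genes. The cause of each change below was not tested beyond what the setting itself removes.

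The ratio of summed levels of DN over DP (16.5) was 17.1 below the 99th percentile of UMIs, 20.7 with clusters in place of labels, 14.8 without Mki67 and Top2a, 21.2 without members that overlap another gene and 18.2 with totals without mitochondrial, ribosomal protein and haemoglobin genes. For DP-P over DP (30.6) the values in that order were 31.8, 31.6, 23.6, 41.3 and 31.7, and 33.7 from the mean of the cells' CPM. For TEC:mTEC-prol over TEC:mTEC1 (9.70) it was 9.20 without cells that hold a thymocyte gene UMI, 9.10 without those that hold one other than Ptprc, 10.9 without overlapping members and 8.93 from the mean CPM.

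The S to G2/M ratio of TEC:mTEC-prol (0.124) was 0.109 and 0.110 without those cells, 0.144 without Mki67 and Top2a, 0.102 without overlapping members, 0.175 with all 15 S genes and 0.114 thinned. That of DN (0.570) was 0.583 below the 99th percentile, 0.373 by clusters, 0.805, 0.374, 0.815 and 0.803 for the last 4 settings. DP-P (0.197) gave 0.200 by clusters, then 0.304, 0.145, 0.290 and 0.177. Without overlapping members TEC:mTEC1 was at 0.936, DP at 0.863 and gdT at 0.719, and TEC:mTEC2 was at 1.98 without cells that hold a thymocyte gene UMI and 1.87 without those other than Ptprc.

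The share with 3 or more UMIs of TEC:mTEC-prol (86.8%) was 63.2% at 1000 and 76.7% at 2000 UMIs, that of DN (100%) 99.02% by clusters and 86.7% at 1000, that of DP (11.1%) 27.4% at 2 UMIs, 3.11% at 5 UMIs, 1.05% at 1000 and 3.79% at 2000, and that of DP-P 98.1% at 1000. Cells with G2/M alone in TEC:mTEC-prol went from 21.1% to 65.8% at 2000 UMIs, DN with S alone from 1.79% to 30.3% and DP-P with both from 88.7% to 48.9%.

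In DN over DP-P, 2 higher members became 0 at 3-fold and 5 by mean CPM, and 16 lower became 9 at 3-fold. In DP over pooled mature, 10 higher became 6 at 3-fold and 16 without Mature CD8-2, and 5 lower became 3 and 0. In endothelial over fibroblast, 9 higher became 5 at 3-fold, and 1 lower became 0 at 3-fold and 2 by mean CPM. Clusters gave no value for TEC:mTEC-prol and TEC:mTEC1, which have no cluster of their name.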
